A study of Homo sapiens with 3 samples.

Results

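The 573 HDAC1 summits that lie on chromosome 22 of the hg19 build were taken from the peak summit lists of 2 CUT&Tag libraries of HepG2, a human hepatocellular carcinoma cell line. The H89 list held 321 of them, 2.78% of its 11553 summits, and the control list held 252, 2.66% of its 9476. Membership rests on the chromosome name alone, so no score or difference between conditions entered the choice.

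The H89 library came from HepG2 cells labelled WT (wild type) and treated with H89, a compound that inhibits PKA, the kinase activated by cAMP. The control library came from WT HepG2 cells without H89. No dose or duration of H89 is stated in the labels. The study also has an IgG library from untreated WT cells. It was not analysed here, and the values have no measured background beside them. Each condition had 1 library, and read totals are unknown. The difference between H89 and control therefore has no replicate check and could not be tested. That the antibody was against HDAC1 is known from the study's title and design text.

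HDAC1 is a class I histone deacetylase. It removes acetyl groups from histone tails as the catalytic subunit of corepressor complexes such as NuRD, Sin3 and CoREST, and it is commonly found at active regulatory elements, where acetylation is turned over. In CUT&Tag, an antibody tethers a transposase to the target protein in permeabilised cells, and the tagged fragments pile up around the places where the protein sits. The summit is the base at which the pile-up is highest. Chromosome 22 is a small acrocentric chromosome. Its short arm carries ribosomal RNA gene arrays that hg19 leaves unsequenced, and its long arm is gene-rich.

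The score of a summit was taken as the −log10 of a p-value with no adjustment for multiple testing, so a higher score means a pile-up less expected from the local background. The intervals given are exact binomial 95% intervals (Clopper-Pearson), which account for counting error alone. For ratios they take the lists to be independent, although they share most summits. No gene annotation of hg19 was used, so summits are placed in chromosome bands and not in genes.

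HDAC1 summits covered the long arm of chromosome 22 unevenly, and the same 4 bands had the highest density with and without H89. The density was highest in 22q12.2, with 38 H89 summits (14.6 per Mb) and 30 control summits (11.5 per Mb). Next by H89 density came 22q13.1 with 13.2 H89 and 9.71 control summits per Mb, 22q13.2 with 13.1 and 10, and 22q11.21 with 13.02 and 10. In the control the order of these bands differed, with 22q13.2 and 22q11.21 ahead of 22q13.1. Band 22q11.21 is known for low-copy repeats and for the recurrent deletion of DiGeorge syndrome. It held the most summits in number, 56 with H89 and 43 in the control.

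Few HDAC1 summits lay next to the centromere or in the small Giemsa-positive bands. Band 22q11.22, which contains the immunoglobulin lambda light chain genes, held 5 H89 and 4 control summits, or 3.85 and 3.08 per Mb. Band 22q13.32 held 3 H89 summits and 1 control summit. The centromeric band 22q11.1 held 1 H89 summit and 2 control summits. No summit of either list was placed on the short arm, where hg19 gives little sequence to which reads could map.

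**Figure D1:**
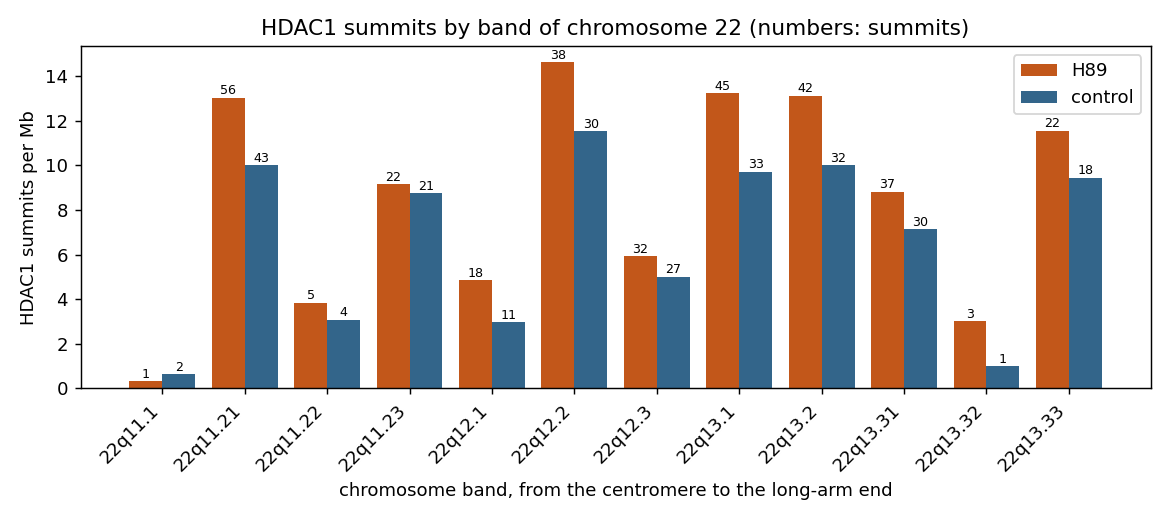
HDAC1 summits per Mb in each band of chromosome 22 that held any, with H89 (left bar) and control (right bar) and the number of summits above each bar. Band 22q12.2 reached 14.6 H89 and 11.5 control summits per Mb, and 22q11.1 and 22q13.32 lay lowest.

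The palely staining bands of the long arm, which are known to be gene-rich, held most of these summits. The 6 Giemsa-negative bands held 11.7 H89 and 9.31 control summits per Mb, against 6.85 and 5.14 in the 5 Giemsa-positive bands. Band 22q13.2 is Giemsa-positive and was an exception, with a density among the highest of the chromosome in both lists. H89 summits outnumbered control summits by a ratio of 1.26 (interval 1.03 to 1.54) in the Giemsa-negative bands and 1.33 (0.979 to 1.82) in the Giemsa-positive bands.

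Within bands the HDAC1 summits formed local groups and left long empty stretches. The fullest 100-kb place ran from position 37997881 to 38082484 in 22q13.1, with 11 H89 and 9 control summits. All 9 control summits there had an H89 partner. The H89 scores in that place ranged from 2.37 to 14.8 with a median of 5.50, and the control scores from 3.45 to 9.04 with a median of 4.77. A second place, from 41763417 to 41844536 in 22q13.2, held 7 H89 and 6 control summits. Another, from 50329554 to 50364459 in 22q13.33, held 6 in each list, and all of them were shared. The longest stretch of the long arm without a summit in either list ran for 1717 kb, from 33936253 to 35653663 in 22q12.3. Stretches of 1435 kb in the centromeric band 22q11.1 (16193252 to 17627825) and 1158 kb in 22q12.1 (26908457 to 28066548) followed.

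Neighbouring summits of the same list were usually well apart. The median distance from a summit to its nearest neighbour in the same list was 15545 bp with H89 and 23992 bp in the control. Over all autosomes these medians were larger, at 22606 bp and 28398.5 bp. A neighbour within 5 kb was present for 81 H89 summits (25.2%) and 43 control summits (17.1%), against 24.4% and 21.2% over all autosomes.

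Chromosome 22 carried more summits in the H89 library than in the control library, at a ratio of 1.27 (1.08 to 1.51). The interval includes 1.21, the ratio over the other 21 autosomes, so a ratio particular to chromosome 22 was not detectable. Every band with at least 4 control summits held more H89 than control summits, by ratios from 1.05 in 22q11.23 (22 against 21) to 1.64 in 22q12.1 (18 against 11). The interval of the ratio included 1 in each of these bands. Of the 35 bins of 1 Mb or less from position 17000001 on, 24 held more H89 summits, 3 held more control summits and 8 held equal numbers, 2 of them none in either list.

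A single megabase of 22q11.21 showed the widest gap between the lists, and it was picked out after the bins had been seen. From 21000001 to 22000000 there were 23 H89 and 11 control summits. All 11 control summits had an H89 partner, and 12 of the H89 summits had no control partner. In this megabase, 9 of the 23 H89 and 3 of the 11 control summits were scored against a background mean of 5 or more units. A unit is the smallest increment of the local background that the scores show. Over all of chromosome 22, such a background stood behind 17.1% of H89 and 16.3% of control summits. From 18000001 to 19000000 in the same band the order was turned round, with 9 H89 and 12 control summits. What part the low-copy repeats of this band have in these counts was not tested.

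Most HDAC1 summits of chromosome 22 were called in both conditions. A control summit lay within 1000 bp of 225 H89 summits (70.1%, interval 64.8 to 75.1), against 72.2% over the whole H89 list. Of the control summits, 225 (89.3%, 84.8 to 92.8) had an H89 summit within that distance, against 87.6% over the whole control list. Both intervals include the share on the other autosomes (72.5% and 87.5%). In 22q13.2 all 32 control summits had a partner. The share of H89 summits with a control partner ranged from 61.1% in 22q12.1 and 62.5% in 22q11.21 to 86.4% in 22q11.23, among bands with at least 10 H89 summits.

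The partners lay almost on top of each other. Mutually nearest summits within 1000 bp formed 223 pairs with a median offset of 53 bp, equal to that on the other autosomes. The offset was 100 bp or less in 156 pairs and 0 in 8. It was smaller where the score was high, with a median of 20 bp in the 11 pairs that averaged 10 or more and 91 bp in the 77 pairs that averaged from 2 up to 4.

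Summits that appeared in 1 list alone were low-scoring. The 96 H89 summits without a control partner had a median score of 3.20, against 5.49 for those with a partner. The 27 control summits without an H89 partner had a median of 3.45, against 4.08 with a partner. All 16 H89 summits and all 8 control summits that scored 10 or more had a partner (intervals 79.4% to 100% and 63.1% to 100%), and on the other autosomes 98.7% and 99.8% of such summits did. A control partner was present for 25 of the 73 H89 summits that scored from 2 up to 3 (34.2%, interval 23.5 to 46.3), against 46.7% on the other autosomes. From 3 up to 5, 82 of 116 H89 summits had one (70.7%, 61.5 to 78.8), and this interval includes the 62.4% on the other autosomes. Of the 55 control summits scoring from 2 up to 3, 45 had an H89 partner (81.8%, 69.1 to 90.9). That interval includes the 74.7% on the other autosomes. Since a summit enters a list by passing a threshold, its absence from the other list does not show that the site was unbound there.

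Among the highest-scoring summits that each list held alone, 22q11.21 contained 2 of the first 5 with H89. In the control it contained 3 of the first 6, since the lowest of those were tied. This band also held the most summits without a partner at any score, 21 of the 96 with H89 and 7 of the 27 in the control. With H89 the highest was at 21754122 in 22q11.21 (score 8.21), 17.3 kb from the nearest control summit. The second was at 21889300 in the same band (7.998), 66.7 kb from one. The third, at 38504184 in 22q13.1 (6.35), lay only 2.71 kb from a control summit. The fourth, at 44321648 in 22q13.31 (5.95), was the most isolated of all 96, with no control summit for 751 kb. The fifth, at 31885977 in 22q12.2, scored 5.75. In the control list the highest was at 47566389 in 22q13.31 (score 7.67), 83.6 kb from the nearest H89 summit. It was followed by 18264465 in 22q11.21 (6.16), 4.14 kb from one. The next were tied at a score of 5.50, at 18359743 and 18575005 in 22q11.21, 33150668 in 22q12.3 and 50610520 in 22q13.33. A summit of the other list lay between 1 and 2 kb away for 8 of the 96 H89 and 5 of the 27 control summits.

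High-scoring HDAC1 summits were scarce on chromosome 22 in both libraries. A score of 10 or more was reached by 16 H89 summits (4.98%, interval 2.88 to 7.97), against 9.89% of the whole H89 list and 9.92% on the other autosomes. In the control it was reached by 8 summits (3.17%, 1.38 to 6.16), against 6.49% of the whole control list and 6.52% on the other autosomes. Both intervals end below the share on the other autosomes. The share on chromosome 22 was the second lowest of the 22 autosomes with H89 and the third lowest in the control. Chromosome 13 was lowest in both, at 4.46% and 0.840%. Chromosomes 3, 12, 15 and 18 also lay within the H89 interval, at 7.54%, 6.96%, 6.67% and 7.64%. The median autosome was at 9.61% with H89 and 5.98% in the control, and the latter lies within the control interval. These intervals describe summits of 1 library each and do not test chromosomes against each other over replicates.

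With H89, chromosomes that are small or gene-dense did not all share this scarcity. In the control, the shares of chromosomes 17, 19 and 21 lay within the chromosome 22 interval (1.38 to 6.16). On chromosome 19, the densest in summits, 10.4% of H89 and 5.68% of control summits scored 10 or more, and on chromosome 17 the shares were 10.9% and 6.15%. Chromosome 21, the smallest by length, had 9.89% and 2.53%, from 9 H89 and 2 control summits. In density chromosome 22 ranked the fifth of the autosomes in both lists, with 6.26 H89 and 4.91 control summits per Mb. This density was taken over the full hg19 length of 51.3 Mb, which includes the short arm without summits. Both the density and the rank depend on that choice. Scores of 5 or more were held by 132 H89 summits (41.1%, interval 35.7 to 46.7), against 46.2% of the whole H89 list. In the control they were held by 91 (36.1%, 30.2 to 42.4), against 41.9%. At this score chromosome 19 had 41.4% of H89 and 38.3% of control summits, and chromosome 17 had 42.9% and 36.7%. All of these lie within the chromosome 22 intervals.

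**Figure D2:**
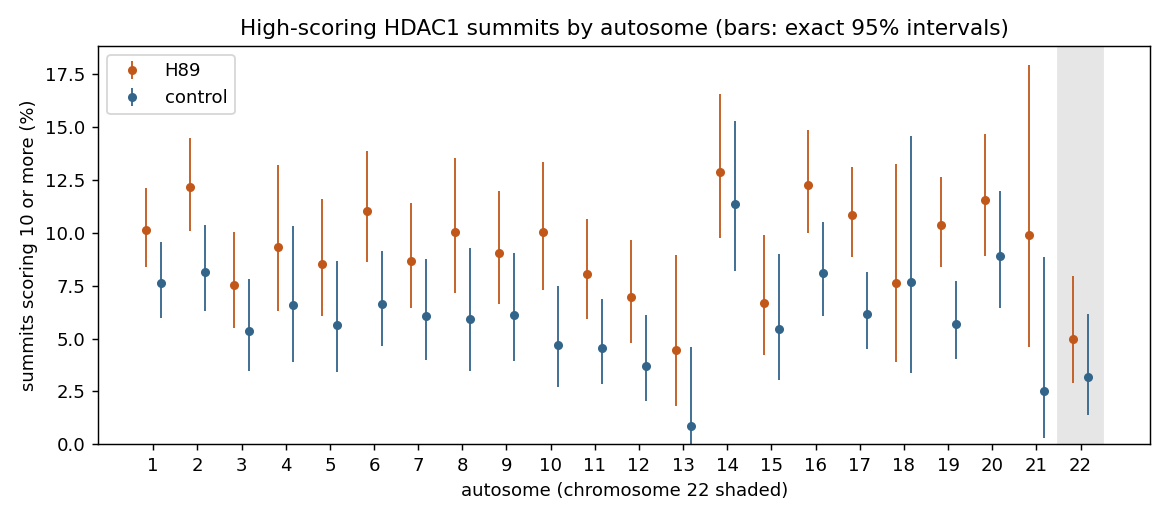
Percentage of HDAC1 summits scoring 10 or more on each autosome, H89 left and control right, with exact 95% intervals as bars and chromosome 22 shaded. Chromosome 22 lies at 4.98% with H89 and 3.17% in the control, near the low end of both lists.

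The scores can be taken apart further, since nearly all of them equal the −log10 Poisson probability of a whole number of counts or more at a small set of background means. Of the chromosome 22 summits, 314 of 321 with H89 and 251 of 252 in the control could be read in this way, each on 1 step alone. That whole number is called the tail count here. The lowest background mean, the floor, was 0.0271 with H89 and 0.0269 in the control. The other means were multiples of a unit of 0.0477 with H89 and 0.0473 in the control, or whole numbers. The floor divided by the unit was 0.5686 in both lists. Which library gave the background, and whether the HDAC1 libraries were scaled to it, is not given in the sources. A tail count is therefore on the scale of the peak caller and is not shown to be a number of fragments.

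Most HDAC1 calls on chromosome 22 rested on very small tail counts, as did most calls of the whole lists. With H89, 100 summits had a tail count of 2 and 92 a tail count of 3, together 61.1% of those read, against 55.8% over the whole H89 list. In the control these were 86 and 90 summits, 70.1%, against 61.0% over the whole control list. A tail count of 6 or more was held by 45 H89 summits (14.3%, interval 10.6 to 18.7), against 21.8% over the whole H89 list. In the control it was held by 33 summits (13.1%, 9.23 to 17.97), against 16.0%. The control interval includes the share on the other autosomes (16.1%) and the H89 interval ends below it (21.8%). The highest tail count was 22 with H89 and 20 in the control, both at a low-scoring site of 22q13.33 with a high background. Its scores were 4.48 with H89 and 2.46 in the control, against background means of 8 and 10.

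Fewer H89 summits were scored against the lowest background than on the other autosomes, while in the control such a difference was not detectable. With H89, 107 summits (33.3%, interval 28.2 to 38.8) were scored against the floor, against 41.6% on the other autosomes. In the control 98 were (38.9%, 32.8 to 45.2), against 41.7%. A low share was not particular to chromosome 22. It was 30.5% with H89 and 28.6% in the control on chromosome 17, and 26.3% and 25.9% on chromosome 19. Chromosome 21 had higher shares, of 58.2% and 53.2%. The step of 2 units held 52 H89 summits (16.2%) and 44 control summits (17.5%), against 10.3% and 10.5% on the other autosomes. These shares were 14.6% and 14.3% on chromosome 19, 11.6% and 12.3% on chromosome 17, and 7.69% and 8.86% on chromosome 21. A background mean of 5 or more units stood behind 55 H89 summits (17.1%, interval 13.2 to 21.7) and 41 control summits (16.3%, 11.9 to 21.4), and both intervals include the shares on the other autosomes (19.6% and 18.7%). What part the background has in the scarcity of high scores was not tested.

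Where HDAC1 was called in both libraries, the H89 summit more often had the higher score. Among the 223 pairs, 116 scored higher with H89 by more than 0.1 (52.0%, interval 45.2 to 58.7), against 50.2% of all pairs of the series. The control scored higher by more than 0.1 in 28 pairs (12.6%, 8.51 to 17.6), against 14.5% of all pairs, and 79 pairs were within 0.1. Both intervals include the share over all pairs. H89 was ahead in 27 of the 77 pairs averaging from 2 up to 4, in 48 of 87 from 4 up to 6, in 32 of 48 from 6 up to 10 and in 9 of the 11 at 10 or more. These shares were 35.1%, 55.2%, 66.7% and 81.8%, against 30.7%, 48.0%, 64.2% and 74.9% on the other autosomes, each of which lies within the interval for chromosome 22. The control was ahead in 10, 11, 5 and 2 pairs of these classes, and 40, 28, 11 and 0 pairs were within 0.1. The classes rest on the mean of both scores, so they are not independent of the H89 score.

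**Figure D3:**
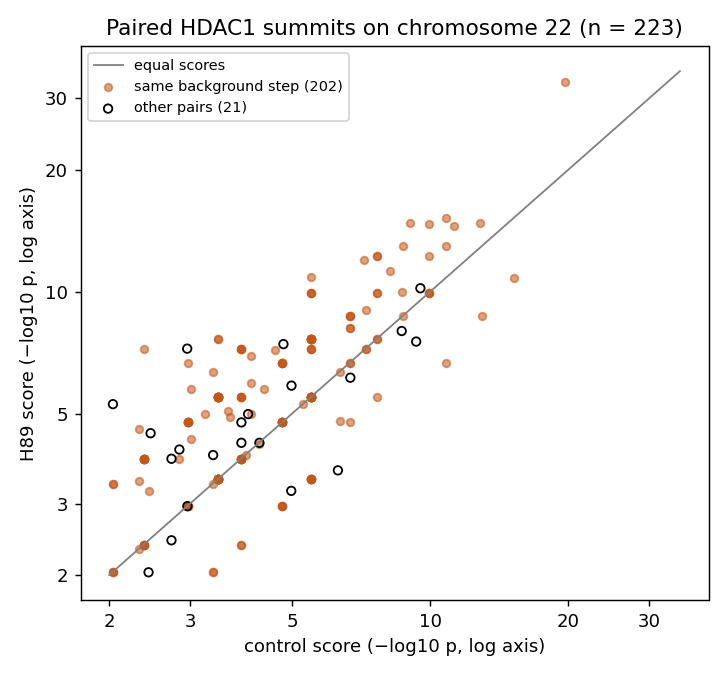
Score with H89 (vertical, −log10 p, log axis) against score in the control (horizontal, −log10 p, log axis) for the 223 paired summits of chromosome 22. Filled points are the 202 pairs on the same background step, open points the other 21, and 116 pairs lie above the line of equal scores by more than 0.1.

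Most pairs were scored against the same background in both lists, so that their counts can be set side by side. Of 220 pairs read in both lists, 202 (91.8%) stood on the same step, and the remaining 18 did not. In 13 of these 18 the background mean was higher with H89. Among the 202, the tail count was higher with H89 in 104 (51.5%, interval 44.4 to 58.6), against 49.0% over all such pairs of the series. It was higher in the control in 21 (10.4%, 6.55 to 15.5), against 12.1%, and equal in 77. The differences were small. H89 was ahead by 1 count in 74 pairs, by 2 in 24 and by 3 or more in 6, and the control by 1 in 18 and by 2 in 3. Tail counts summed over the 202 pairs came to 801 with H89 and 682 in the control, a ratio of 1.17, against 1.16 on the other autosomes.

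The excess with H89 was seen at sites with the lowest background and at the others. Among the 81 pairs on the floor, the tail count was higher with H89 in 38, equal in 35 and higher in the control in 8. Among the 121 pairs on the same step above the floor, these numbers were 66, 42 and 13. With 1 library per condition, a difference in depth, in labelling efficiency and in HDAC1 occupancy cannot be told apart.

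**Figure D4:**
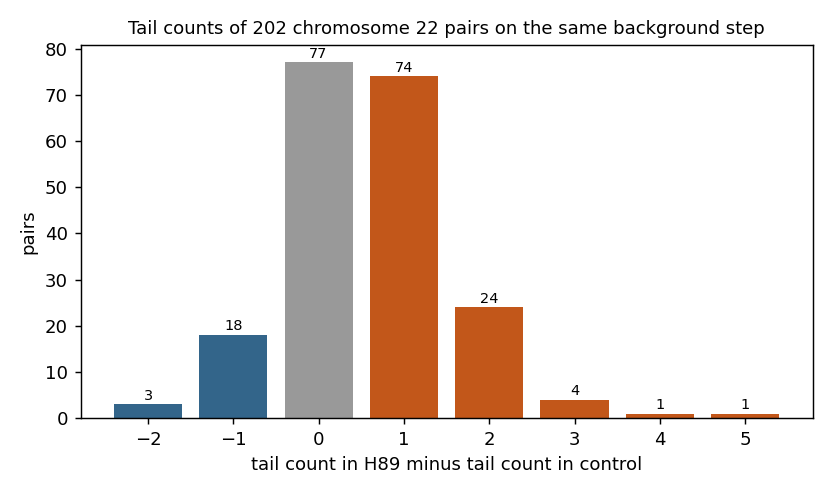
Number of pairs (vertical) by the tail count with H89 minus that in the control (horizontal), for the 202 chromosome 22 pairs on the same background step. The tail count was equal in 77 pairs, higher with H89 in 104 and higher in the control in 21.

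The strongest HDAC1 site of chromosome 22 was the same in both libraries and stood apart from the rest. It lay in 22q12.2, with its summit at 30988078 with H89 (score 32.9) and at 30988058 in the control (score 19.7). Both were scored against the floor, with tail counts of 14 and 9. It was also the pair with the largest score difference in favour of H89, 13.2.

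The next sites scored close to each other, and their order differed between the lists. The second by mean score was in 22q13.2, at 41347424 with H89 (score 14.8) and 41347495 in the control (12.8), with tail counts of 9 and 8. Another site of 22q13.2 scored 15.2 at 42475884 with H89 and 10.8 at 42475876 in the control. In 22q13.31 the summits lay 1 bp apart, at 47331775 with H89 (14.5) and 47331774 in the control (11.3). This site had a higher background, of 5 units, and tail counts of 11 and 9.

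Band 22q11.23 held a pair of strong sites near each other. The stronger scored 14.7 at 24407563 with H89 and 9.94 at 24407729 in the control, and the weaker 12.3 at 24384556 with H89 and 9.94 at 24384564 in the control. All 4 summits were scored against the floor, with tail counts of 7 and 6 with H89 and of 5 at both places in the control. A second site of 22q12.2 scored 13.0 at 32058084 with H89 and 10.8 at 32058075 in the control.

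The fullest place of the chromosome, in 22q13.1, contained sites with some of the largest differences in favour of H89. Of all 9 pairs in this place, 5 scored higher with H89 and 1 in the control, against 52.0% and 12.6% of the chromosome 22 pairs. At 38004696 the H89 score was 14.8, against 9.04 at 38004632 in the control, with tail counts of 9 and 6. At 38054575 it was 10.9, against 5.51 at 38054568 in the control, with tail counts of 7 and 4. Outside this place, a site of 22q13.2 scored 7.22 at 43474883 with H89 and 2.38 at 43474854 in the control. In 22q11.21, the H89 summit at 21822630 scored 11.98, and the control summit at 21822650 scored 7.18. That site had a background of 15 units in both lists and tail counts of 13 and 9.

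The largest score differences in favour of the control were found at strong and at weaker sites. In 22q13.33, the H89 summit at 50585774 scored 10.8 and the control summit at 50585789 scored 15.2, with tail counts of 6 and 8. In 22q13.31, the scores were 8.71 at 46773814 with H89 and 13.0 at 46773916 in the control, with tail counts of 5 and 7. In 22q11.23, the H89 summit at 24902805 scored 6.68, and a control summit 377 bp away, at 24902428, scored 10.8. A site of 22q13.2 scored 3.62 at 41777356 with H89 and 6.30 at 41777651 in the control. Its summits were scored against different background means, so its tail counts of 9 and 10 are not comparable in the same way. In 22q12.3, the scores were 5.49 at 35887701 with H89 and 7.67 at 35887771 in the control, a difference of 1 in the tail count (3 and 4).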

How the data were processed

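CUT&Tag was performed in HepG2 cells with a Vazyme kit, per the labels. Bowtie 0.12.2 and the hg19 build appear in the submitters' processing notes. How peaks were called, against which control and at which threshold, is not given in the sources used here. The authors deposited, for each HDAC1 library, a list of 1-bp summits with a score, read here as a −log10 p-value from its values. Peak names match the sample titles, which assigned each list to its library. Summits on chromosome 22 were selected by name and placed in bands with circlize 0.4.16 in R 4.3.3, whose hg19 band table was used. Pairs are mutually nearest summits within 1000 bp. A score was assigned to a Poisson step only if exactly 1 step lay within 1e-05 of it, as a share of the score. The floor was fitted to the commonest score from 5 to 6 and the unit to that from 4 to 5, both as 3 counts or more, and this reading was chosen after seeing the data. Functions were tested on simulated data. Sites named individually are the 10 pairs with the highest mean score and the 5 with the largest difference in each direction. The 5 highest unpaired summits of each list, with ties in the control, are named too. So are the longest gaps, the fullest 100-kb places and the densest bands. Members, rules and alternatives were chosen with earlier results of these data known. Scripts ran in Python 3.11.15 (scipy 1.17.1, pandas 2.3.3, numpy 2.4.6, and matplotlib 3.10.9 for figures).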

Additional observations from a re-analysis of the deposited data

How the results depend on the processing

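The H89 to control ratio of chromosome 22 summits was 1.27 with summits within 500 bp merged, 1.28 without the centromeric band, 1.45 at a score of 5 or more and 1.30 at a tail count of 3 or more (chosen after seeing the data). At a score of 10 or more it was 2, from 16 H89 and 8 control summits, with an interval of 0.808 to 5.40. The share of H89 summits with a control partner was 2.49% at the identical base, 48.6% within 100 bp, 63.0% with equal numbers of top summits and 89.4% at a score of 5 or more. The share of control summits with an H89 partner was 3.17%, 61.9%, 71.7% and 93.4% under the same alternatives. Equal numbers of top summits did not mean equal numbers on chromosome 22, which held 127 H89 and 113 control summits under that alternative. At 500 and 2000 bp both shares stayed within the interval of the value reported. The share of pairs scoring higher with H89 was 61.7% at a mean score of 5 or more, and between 51.5% and 55.8% under the other alternatives run. The highest H89 density was 23 summits per Mb in bins of 1 Mb. No paired analysis was possible because neither condition has a second library. The single library and the unknown depth limit all values.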
